A study of Homo sapiens with 12 samples.

Results

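This account covers the 100 protein-coding genes of the human ZNF series, named ZNF followed by a number, that held the most counts over 12 libraries from cultured human cardiomyocytes. The table lists 517 such genes, of which 499 had any count, and the 100 described here held 65.1% of the counts of the series. The cardiomyocytes were differentiated from WTC-mEGFP-ACTN2-cl85, an established induced pluripotent stem cell line whose sarcomeric alpha-actinin, the product of ACTN2, has a green fluorescent tag on its C-terminus from 1 of the gene copies. Every culture carries this tag and comes from 1 clone. The groups were 10 nM endothelin-1 plus 16 µM sacubitrilat (the combined group), 10 nM endothelin-1 alone, 16 µM sacubitrilat alone, and the DMSO vehicle, each for 48 h with 3 cultures. Endothelin-1 is a vasoconstrictor peptide that drives hypertrophic growth of cardiomyocytes, and sacubitrilat is the active form of the neprilysin inhibitor sacubitril. For the 6 single-compound libraries, the description also carries a line that names the opposite compound, so endothelin-1 and sacubitrilat could be exchanged between those libraries. The groups here follow the titles.

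Zinc finger proteins of the C2H2 type hold a zinc ion between a pair of cysteines and a pair of histidines in each finger, and runs of fingers contact successive bases of DNA. Many of them also carry a KRAB box, which recruits TRIM28 and, through it, the histone methyltransferase SETDB1 and HP1 proteins, so that the bound locus is packed into heterochromatin. KRAB zinc finger genes arose by repeated duplication, lie in large clusters on human chromosome 19, and are best known for silencing transposable elements. The ZNF symbol is a naming series and not a family: other proteins that carry it have few or no such fingers and act in transcriptional repression, spindle assembly or ribosome assembly.

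A search of the translated GENCODE transcripts found a KRAB box in 31 of the 100 genes, with 5 to 31 fingers (median 13). Another 58 genes had 2 to 33 classical C2H2 fingers (median 6.5) and no KRAB box found by the pattern used. The other 11 genes had 0 or 1 classical finger. In what follows, a gene without a KRAB box is one in which this pattern found none. Some of these genes may carry a KRAB box that the pattern missed. Chromosome 19 held 34 of the 100 genes, 22 of them with a KRAB box. ZNF462, a chromatin-associated protein, had the most fingers (33), while the related repressors ZNF503 and ZNF703 and the nucleolar protein ZNF330 had none that fitted the pattern.

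Summed counts chose the genes, so their overall height is a description. ZNF689 and ZNF277 stood last inside the limit with 213.5 counts each, and ZNF430 with 212 and ZNF318 with 211 stood just outside. All 100 genes passed the filter on low counts (a CPM of 12.6 in enough libraries), 98 of them in each of the 6 single-compound libraries, and none passed through the combined and vehicle libraries alone. The filter asked for 3 libraries, and 11 genes reached its level in fewer than 3 of the 6 combined and vehicle libraries: ZNF32, ZNF33A, ZNF146, ZNF275, ZNF286A, ZNF302, ZNF467, ZNF518B, ZNF672, ZNF692 and ZNF770. These were tested only because the single-compound libraries carried them, so where they are lower in a shallow group their values are a description, with no p printed. The single-compound libraries held 91.0% of all counts and 86.2% of the counts of the 100 genes, so the choice leaned on them. Choosing by summed CPM instead would have kept 81 of the 100.

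Library totals split the groups before any gene is considered. Totals were 87281 to 158791 counts in the combined group, 1473744 to 1781653 with endothelin-1, 1268308 to 1953122 with sacubitrilat and 80844 to 316932 with vehicle. The single-compound groups together held 10.1 times the counts of the combined and vehicle groups. Each of the 4 comparisons in which 1 compound is added therefore sets deep libraries against shallow ones, and treatment and library total cannot be told apart there. The combined group against vehicle and endothelin-1 against sacubitrilat compare libraries of like totals. CPM are a gene's count over its library total, on the usual CPM scale. The libraries count 3′ ends, so no length was divided out. In bulk RNA, fewer cells of a type and less RNA per cell cannot be told apart.

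Promoters are shown for 4 genes on which the results turn, each in RefSeq GRCh38.p14, 250 bases before to 50 after the annotated start, in the direction of the gene. ZNF611, ZNF320 and ZNF121 lie on chromosome 19 and took a far larger share of the shallow libraries, while ZNF503, on chromosome 10, holds the highest summed count and did not. Capitals mark 3 motifs on either strand: CCGGAAG, an ETS-type core, GGGCGG, the GC box, and ATGGCGG, part of the YY1 motif.
ZNF611, chr19:52734995-52735294, minus strand: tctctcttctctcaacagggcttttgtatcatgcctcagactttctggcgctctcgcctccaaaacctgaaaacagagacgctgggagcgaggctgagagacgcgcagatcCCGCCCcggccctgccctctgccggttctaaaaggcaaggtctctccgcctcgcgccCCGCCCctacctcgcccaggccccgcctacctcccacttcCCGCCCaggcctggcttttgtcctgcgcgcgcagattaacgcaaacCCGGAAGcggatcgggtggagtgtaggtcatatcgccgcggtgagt
ZNF320, chr19:52897645-52897944, minus strand: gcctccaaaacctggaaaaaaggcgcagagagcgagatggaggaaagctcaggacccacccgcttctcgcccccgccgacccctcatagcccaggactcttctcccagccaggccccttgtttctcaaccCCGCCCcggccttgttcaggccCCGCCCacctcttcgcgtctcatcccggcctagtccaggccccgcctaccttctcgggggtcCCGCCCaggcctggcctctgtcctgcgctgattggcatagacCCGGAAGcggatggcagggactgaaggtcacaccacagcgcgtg
ZNF121, chr19:9584455-9584754, minus strand: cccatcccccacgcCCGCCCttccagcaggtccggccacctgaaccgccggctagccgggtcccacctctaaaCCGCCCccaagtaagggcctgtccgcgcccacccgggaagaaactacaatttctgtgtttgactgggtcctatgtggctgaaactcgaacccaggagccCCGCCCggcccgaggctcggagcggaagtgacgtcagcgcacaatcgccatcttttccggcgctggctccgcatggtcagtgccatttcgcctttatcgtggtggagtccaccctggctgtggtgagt
ZNF503, chr10:75401867-75402166, minus strand: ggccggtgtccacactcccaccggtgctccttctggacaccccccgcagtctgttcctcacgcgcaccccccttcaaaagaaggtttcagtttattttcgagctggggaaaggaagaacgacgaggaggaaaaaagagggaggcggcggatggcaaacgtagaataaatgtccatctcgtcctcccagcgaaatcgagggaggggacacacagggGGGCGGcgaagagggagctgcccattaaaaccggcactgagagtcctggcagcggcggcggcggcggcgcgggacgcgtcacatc
ZNF611 and ZNF320 each held 3 GC boxes and, close to the start, 1 ETS core. ZNF121 held 3 GC boxes, and ZNF503 held 1. The YY1 letters were not in these 4 windows.

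Promoters of 88 of the 100 genes could be matched by symbol. The ETS core stood in 42.0% of them, against 10.7% of all 27305 promoters in the RefSeq table. The GC box stood in 65.9% against 44.6%, and the YY1 letters in 8.0% against 5.7%. The 27305 promoters were not narrowed to coding or counted genes, and their median GC content was 58.3%, against 64.2% in the 88. Among KRAB genes the ETS core stood in 18 of 30 promoters (60.0%), against 19 of 58 (32.8%) in the genes without a KRAB box. Median GC content was 61.7% in KRAB promoters and 67.0% in the others. Of the genes called higher in the combined group than with endothelin-1, 16 of 30 promoters held the ETS core, against 3 of 13 for those called lower and 18 of 45 for those not called. Of the 16 genes called lower, 7 were carried past the filter by the single-compound libraries, where they are high. The lower set is therefore a description. These matches describe letters and are no sites.

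The 100 genes took a larger share of the counts in the shallow libraries. Their share was 0.931%, 0.722% and 0.748% in the combined libraries, 0.419%, 0.418% and 0.432% with endothelin-1, 0.485%, 0.481% and 0.474% with sacubitrilat, and 0.605%, 0.921% and 0.740% with vehicle. Every combined and vehicle library lay above every single-compound library, and every endothelin-1 library lay below every sacubitrilat library. Group means were 0.801 ± 0.114% in the combined group, 0.423 ± 0.008% with endothelin-1, 0.480 ± 0.005% with sacubitrilat and 0.755 ± 0.159% with vehicle (SD, n = 3). No p is given for a sum over genes chosen by their counts.

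KRAB genes carried most of that difference. Their share was 0.397%, 0.265% and 0.306% in the combined libraries, 0.0822%, 0.0846% and 0.0885% with endothelin-1, 0.100%, 0.113% and 0.101% with sacubitrilat, and 0.208%, 0.428% and 0.280% with vehicle. Within the vehicle group the library with the lowest total, replicate 2, had the highest KRAB share, and the library with the highest total, replicate 1, had the lowest; the combined libraries fell in the same order. The 58 C2H2 genes without a KRAB box took 0.349% to 0.427% in the combined group, 0.257% to 0.265% with endothelin-1, 0.282% to 0.290% with sacubitrilat and 0.303% to 0.401% with vehicle. For the 11 genes with 0 or 1 finger the ranges were 0.0934% to 0.107% in the combined group, 0.0771% to 0.0785% with endothelin-1, 0.0858% to 0.0948% with sacubitrilat and 0.0922% to 0.0999% with vehicle, so that the sacubitrilat, combined and vehicle ranges overlapped.

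**Figure D1:**
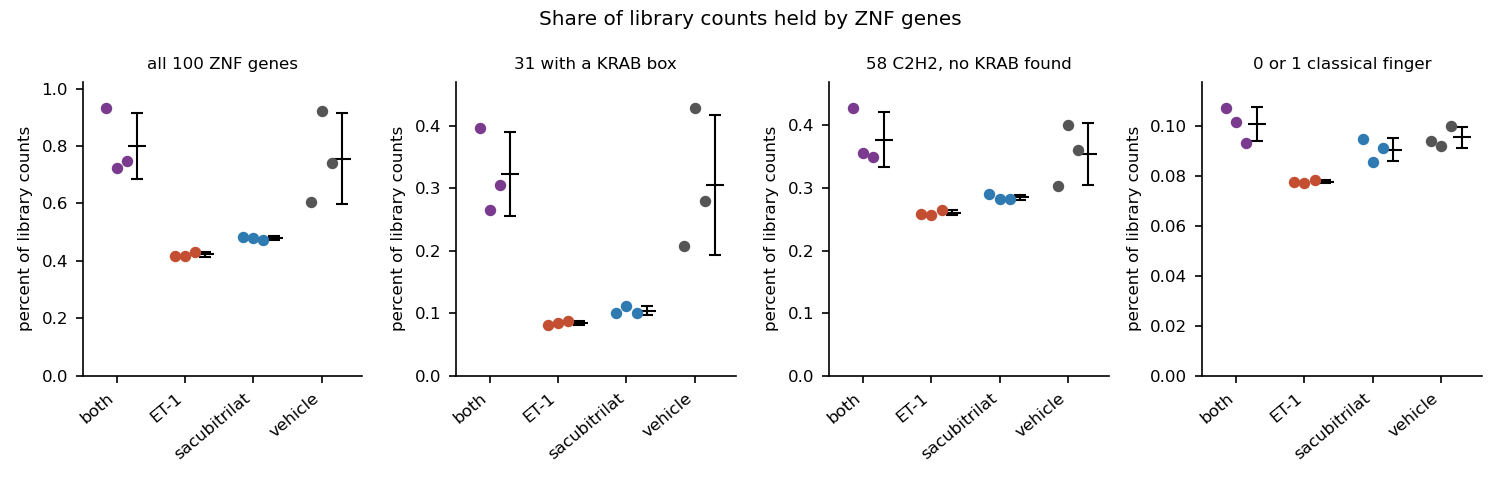
Percent of library counts (y axis, from 0) held by all 100 ZNF genes and by each protein class in the combined (both), endothelin-1 (ET-1), sacubitrilat and vehicle libraries. Points are libraries and black bars are group means with SD, n = 3; KRAB genes reached 0.428% in a vehicle library and at most 0.113% in a single-compound library.

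Other features of the shallow libraries moved with this share, and their part in it was not tested. Long noncoding RNA took 9.22% to 10.9% of counts in the combined group, 5.20% to 5.29% with endothelin-1, 5.35% to 5.63% with sacubitrilat and 7.60% to 10.1% with vehicle. The CPM of 7 endoderm and liver markers summed to 445 to 584 in the combined group, 54.4 to 83.5 with endothelin-1, 48.5 to 59.4 with sacubitrilat and 197 to 680 with vehicle, each of the 7 being detected in every group. Cardiomyocyte markers were present throughout, their 9 genes summing to 9263 to 15212 CPM in the combined group, 18768 to 19579 CPM with endothelin-1, 12529 to 13339 CPM with sacubitrilat and 6228 to 12353 CPM with vehicle. The summed CPM of the fibroblast, smooth muscle and nuclear RNA lists ran the other way. Each sum was lower in every combined and vehicle library than in every single-compound one. The 7 fibroblast markers summed to 1936 to 4430 CPM in the combined group, 6724 to 7588 CPM with endothelin-1, 6999 to 7310 CPM with sacubitrilat and 1732 to 4952 CPM with vehicle. The 4 smooth muscle markers summed to 871 to 2219 CPM in the combined group, 3472 to 3511 CPM with endothelin-1, 2697 to 2746 CPM with sacubitrilat and 461 to 1985 CPM with vehicle. The 6 nuclear long noncoding RNAs summed to 3999 to 5942 CPM in the combined group, 10546 to 11385 CPM with endothelin-1, 8642 to 10140 CPM with sacubitrilat and 3647 to 5652 CPM with vehicle. MALAT1 among them averaged 1080 ± 292 CPM in the combined group, 7945 ± 382 CPM with endothelin-1, 7398 ± 723 CPM with sacubitrilat and 2224 ± 1227 CPM with vehicle (SD, n = 3). SNHG14 ran against the sum, averaging 1253 CPM in the combined group, 687 with endothelin-1, 520.5 with sacubitrilat and 1069 with vehicle. NEAT1 averaged 1959, 1725, 701 and 1043 CPM in the same order. Of 5 nuclear RNAs tested, 1 was higher and 1 lower in the combined group than with endothelin-1 (median 0.08). Of all genes 16.6% were higher and 17.8% lower. Of the 5 endothelial markers CDH5 had no count outside the sacubitrilat group, and these and 6 pluripotency markers were too low to test.

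Put as counts, ZNF121 gave 781.5 reads in the 6 combined and vehicle libraries and 829.5 in the 6 single-compound libraries, a ratio of 0.942, where the totals stood at a ratio of 0.0993. ZNF432 followed at 0.803, ZNF611 at 0.614, ZNF69 at 0.577 and ZNF506 at 0.536, and all of these except ZNF121 are KRAB genes. No other gene exceeded 0.5, and the median over the 100 was 0.103, close to the ratio of totals. At the other end ZNF32 stood at 0.0159, ZNF518B at 0.0223 and ZNF146 at 0.0239. Of the 100 genes, 49 fell below the ratio of totals.

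**Figure D2:**
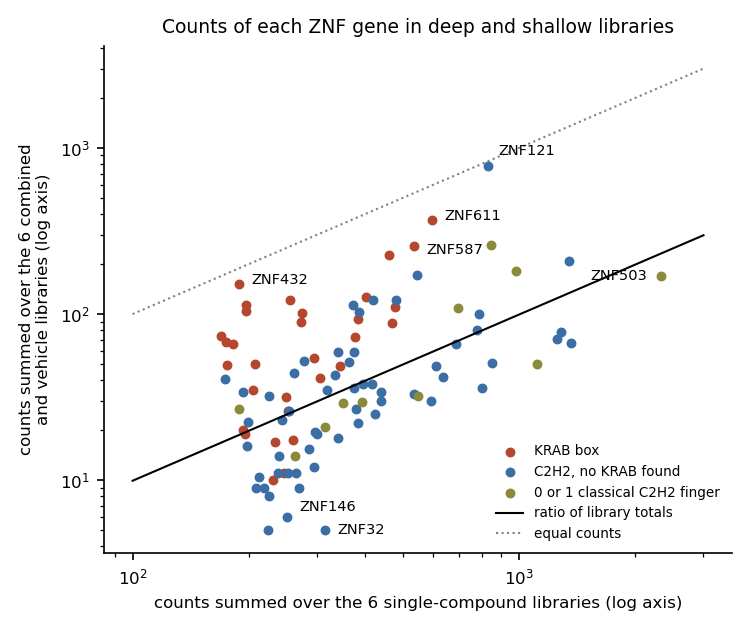
Counts of each of the 100 ZNF genes summed over the 6 combined and vehicle libraries (y axis) against counts summed over the 6 single-compound libraries (x axis), both on log axes. Points are genes coloured by protein class, the solid line is the ratio of the library totals (0.0993) and the dotted line equal counts; ZNF121 lies near the dotted line at 0.942.

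The primary question of the design is what endothelin-1 changes and what sacubitrilat changes in its presence. Between the combined group and endothelin-1 alone, 31 of the 100 genes were higher and 16 lower in the combined group (edgeR quasi-likelihood test, Benjamini-Hochberg adjusted p under 0.05 over 11203 genes). Across all genes tested 34.4% were called, 16.6% higher and 17.8% lower. The KRAB genes leaned one way: 19 of 31 rose in the combined group and 1 fell, with a median log2 fold change of 1.54. The 1 that fell was ZNF302, which the single-compound libraries carried past the filter. The 58 C2H2 genes without a KRAB box gave 10 higher and 14 lower with a median of -0.62, the 11 others 2 higher and 1 lower with a median of -0.41, and all genes tested had a median of -0.23. Of the 16 lower genes 7 were among the 11 that the single-compound libraries carried past the filter, and the other 89 genes gave 31 higher and 9 lower. Leaving out the 2 libraries under 100000 counts, which are combined replicate 1 and vehicle replicate 2, gave 19 KRAB genes higher and 0 lower. The split over the 100 genes depends on the scaling: with no filter on low counts it was 25 higher and 29 lower, all genes having moved by -0.48 on the log2 scale. Relative to the median of all genes, the KRAB median was 1.77 in each of these fits.

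ZNF121 had 1398, 938 and 963 CPM in combined libraries and 80.3, 69.9 and 88.1 CPM with endothelin-1. The combined libraries all lay above, and the log2 fold change was 3.70 ± 0.20 (SE, adjusted p = 1.9e-16, edgeR). ZNF432, a KRAB gene with 16 fingers, had 264, 141 and 214 CPM in combined libraries, against 16.2, 14.2 and 12.5 CPM with endothelin-1. Its log2 fold change was 3.70 ± 0.32 (adjusted p = 2.9e-11, edgeR), and the groups did not overlap. ZNF611, a KRAB gene with 13 fingers, had 602, 375 and 526 CPM in combined libraries, against 54.2, 52.1 and 62.2 CPM with endothelin-1, and a log2 fold change of 3.06 ± 0.18 (adjusted p = 1.1e-15, edgeR). ZNF587, also with 13 fingers, had 361, 252 and 269 CPM in combined libraries, against 37.9, 31.9 and 46.5 CPM with endothelin-1. In each of these 4 genes the lowest combined library lay above the highest endothelin-1 library. ZNF587 rose by 2.82 ± 0.27 on the log2 scale, and ZNF69 and ZNF506 completed the 6 largest rises, at 2.80 ± 0.29 and 2.75 ± 0.33 on the log2 scale.

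The 6 lowest fold changes in the combined group were in genes with few reads there, and all 6 reached the filter level in no combined library. ZNF32 had 0, 0 and 7.41 CPM in combined libraries, which is 1 read in all, against 30.9, 37.3 and 36.1 CPM with endothelin-1. The pooled CPM stood at a ratio of 0.0759 (95% counting interval 0.00191 to 0.429). ZNF146, a short protein made almost wholly of fingers, had 0, 6.30 and 0 CPM in combined libraries, against 21.9, 24.4 and 19.2 CPM with endothelin-1, a ratio of 0.121 (95% counting interval 0.00303 to 0.688). Both genes were undetected in 2 of the 3 combined libraries, where 3 reads amount to 18.9 to 34.4 CPM. ZNF518B gave a ratio of 0.143 (95% counting interval 0.00359 to 0.820) from 1 read in the combined group. ZNF302, ZNF770 and ZNF275 rested on 2 reads each there, with ratios of 0.211, 0.219 and 0.223 and upper bounds of 0.777, 0.810 and 0.824. These genes entered the test through the single-compound libraries, where they are high, so their calls are no test result. The calls were not stable either. Without combined replicate 3 those of ZNF146, ZNF275, ZNF518B and ZNF770 were lost. Without replicate 2 those of ZNF275, ZNF302 and ZNF770 were lost, and without replicate 1 those of ZNF302 and ZNF518B. DESeq2 did not call ZNF275, ZNF302, ZNF518B or ZNF770.

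**Figure D3:**
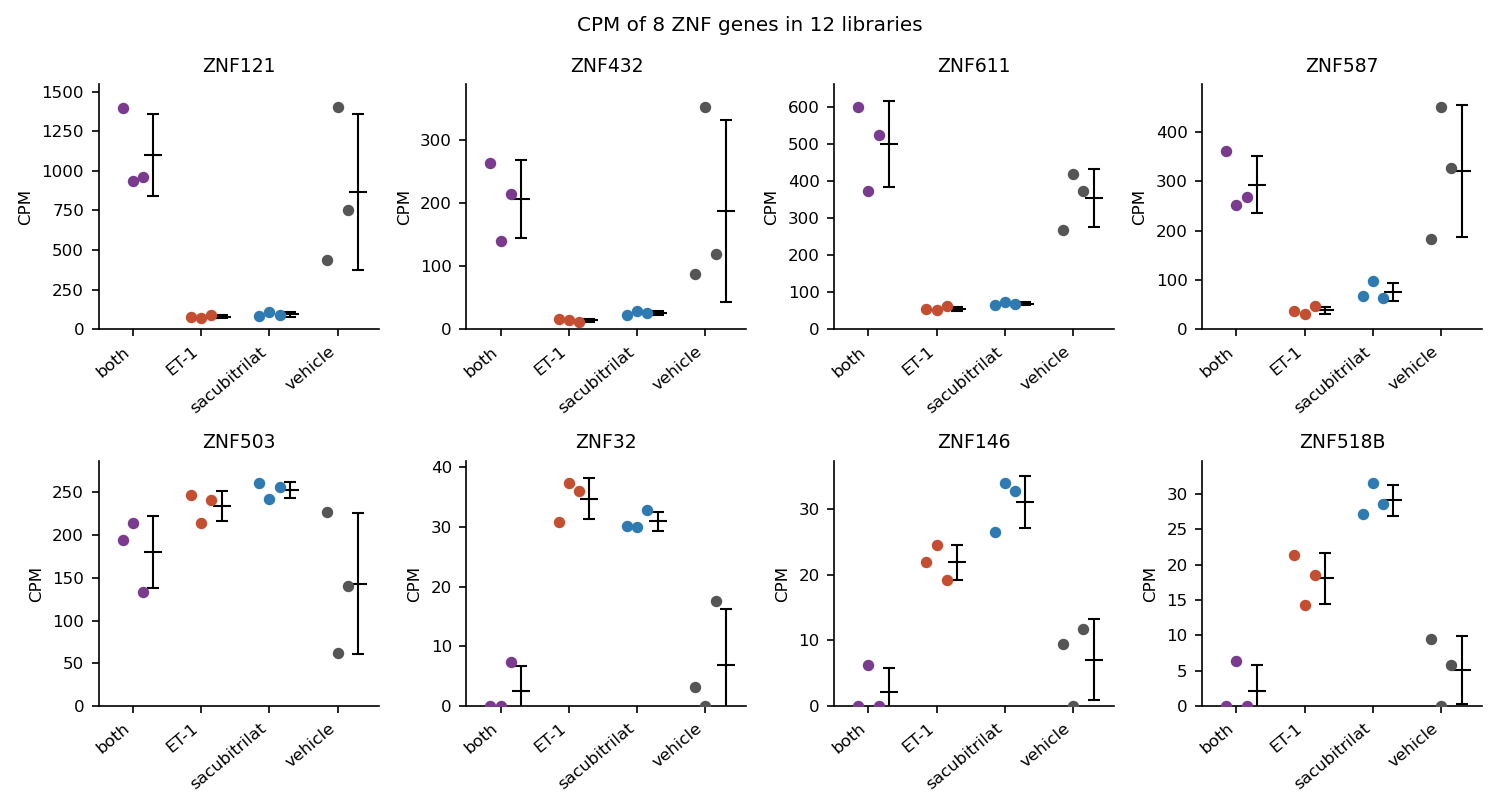
CPM (y axis, from 0) of 8 ZNF genes in the combined (both), endothelin-1 (ET-1), sacubitrilat and vehicle libraries. Points are libraries and black bars are group means with SD, n = 3, cut at 0; ZNF121 reached 1404 CPM in a vehicle library and 113 CPM at most in a single-compound library, while ZNF32 ran the other way.

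Among the other most counted genes, none of which has a KRAB box, changes of both signs were smaller. ZNF503, a repressor of the NET family, had 195, 214 and 133 CPM in combined libraries and 247, 214 and 241 CPM with endothelin-1. The highest combined library lay inside the endothelin-1 range, and ZNF503 was not called (log2 fold change -0.41 ± 0.24, adjusted p = 0.194, edgeR). ZNF609 had 321, 252 and 289 CPM in combined libraries, against 87.6, 90.9 and 72.7 CPM with endothelin-1, a rise of 1.71 ± 0.21 on the log2 scale (adjusted p = 4.3e-08, edgeR). ZNF207, which binds the spindle checkpoint protein BUB3, had 292, 195 and 189 CPM in combined libraries, against 83.6, 85.5 and 94.2 CPM with endothelin-1, and rose by 1.28 ± 0.22 (adjusted p = 1.6e-05, edgeR). In both genes every combined library lay above every endothelin-1 library. ZNF106 had 401, 239 and 185 CPM in combined libraries, against 160.5, 151 and 152 CPM with endothelin-1, a rise of 0.71 ± 0.20 (adjusted p = 0.0048, edgeR) that was lost without combined replicate 1 or 2. ZNF292 fell, with 57.3, 81.9 and 14.8 CPM in combined libraries against 129.7, 129 and 144 CPM with endothelin-1 (log2 fold change -1.39 ± 0.33, adjusted p = 0.0014, edgeR). ZNF827, known for recruiting the NuRD complex to telomeres, had 11.5, 63.0 and 51.9 CPM in combined libraries, against 139, 113 and 129.7 CPM with endothelin-1, and fell by 1.47 ± 0.38 on the log2 scale (adjusted p = 0.0027, edgeR). ZNF462 had 57.3, 63.0 and 44.5 CPM in combined libraries, against 109, 117 and 119.8 CPM with endothelin-1, again without overlap (log2 fold change -1.10 ± 0.32, adjusted p = 0.0077, edgeR). ZNF703 had 22.9, 44.1 and 51.9 CPM in combined libraries, against 80.8, 95.0 and 80.8 CPM with endothelin-1, and its fall of 1.05 ± 0.36 was lost without combined replicate 1 (adjusted p = 0.0199 with it, edgeR).

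Endothelin-1 against vehicle gave the opposite picture, in which the endothelin-1 libraries are the deep ones. In the endothelin-1 group 6 of the 100 genes were higher and 35 lower, where 23.2% of all genes were called, 11% higher and 12.2% lower. Of the KRAB genes 21 of 31 fell with endothelin-1 and 0 rose (median log2 fold change -1.23), of the 58 C2H2 genes without a KRAB box 11 fell and 5 rose (median 0.18), and of the 11 others 3 fell and 1 rose (median 0.07). Leaving out the 2 libraries under 100000 counts left 20 KRAB genes lower and 0 higher. Without vehicle replicate 3 the count over the 100 genes was 27 in place of 41, and with no filter on low counts it was 8 higher and 24 lower. The vehicle libraries are shared by this comparison and the next, and the endothelin-1 libraries by this one and the last.

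ZNF121 had 80.3, 69.9 and 88.1 CPM with endothelin-1, against 435, 1404 and 756 CPM with vehicle (log2 fold change -3.13 ± 0.21, adjusted p = 7.8e-14, edgeR). Vehicle replicate 1, the deepest of that group, was the lowest vehicle library and still lay above all endothelin-1 libraries. ZNF432 had 16.2, 14.2 and 12.5 CPM with endothelin-1, against 88.3, 352 and 120.1 CPM with vehicle, a fall of 3.18 ± 0.31 on the log2 scale. ZNF557, a KRAB gene whose deposited counts were all whole numbers, had 21.9, 20.4 and 25.0 CPM with endothelin-1, against 72.6, 309 and 169.9 CPM with vehicle (log2 fold change -2.57 ± 0.31, adjusted p = 8.0e-08, edgeR). ZNF587, ZNF611 and ZNF506 were the other falls among the 6 largest, at -2.74 ± 0.23, -2.49 ± 0.18 and -2.44 ± 0.30 on the log2 scale. In all 6 genes the groups did not overlap.

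The 6 genes called higher with endothelin-1 all lacked a KRAB box, and ZNF692, ZNF32 and ZNF467 are among those that the single-compound libraries carried past the filter. ZNF692 had 27.5, 30.5 and 25.6 CPM with endothelin-1, against 6.31, 0 and 5.86 CPM with vehicle, which is 3 reads. The pooled ratio was 5.26 (95% counting interval 1.76 to 25.8). ZNF32 had 30.9, 37.3 and 36.1 CPM with endothelin-1, against 3.15, 0 and 17.6 CPM with vehicle (log2 fold change 2.31 ± 0.56). ZNF704 had 61.2, 56.3 and 75.6 CPM with endothelin-1, against 34.7, 12.4 and 11.7 CPM with vehicle (1.42 ± 0.38 on the log2 scale). ZNF467 had a log2 fold change of 1.48 ± 0.51, ZNF664 rose by 1.33 ± 0.50, and ZNF292 by 0.73 ± 0.25 with an adjusted p of 0.0294 (edgeR). The vehicle libraries lay below all endothelin-1 libraries in each. Leaving out vehicle replicate 1 ended the calls of ZNF32, ZNF292 and ZNF664, leaving out replicate 2 those of ZNF467 and ZNF664, and leaving out replicate 3 those of ZNF467, ZNF664 and ZNF704. ZNF292 and ZNF664 were also lost without endothelin-1 replicate 1 and by limma-voom, and ZNF467 and ZNF664 by DESeq2.

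The 2 remaining single-compound steps repeated these directions. Sacubitrilat against vehicle gave 7 genes higher and 31 lower, where 19.9% of all genes were called, 8.68% higher and 11.2% lower. The combined group against sacubitrilat gave 34 higher and 15 lower, where 35.0% were called, 17.2% higher and 17.8% lower. Of those 15 lower genes 5 were among the 11 that the single-compound libraries carried past the filter. The other 89 genes gave 34 higher and 10 lower there. With sacubitrilat against vehicle 3 of the 7 higher genes were among the 11, and the other 89 gave 4 higher and 31 lower. With no filter on low counts the splits were 11 higher and 21 lower with sacubitrilat, and 22 higher and 30 lower in the combined group. KRAB genes accounted for 20 of the 31 falls with sacubitrilat and 21 of the 34 rises in the combined group. ZNF121 had 83.0, 113 and 90.1 CPM with sacubitrilat, against 435, 1404 and 756 CPM with vehicle (log2 fold change -3.00 ± 0.21, adjusted p = 1.3e-13, edgeR). ZNF69 had 22.0, 19.7 and 21.0 CPM with sacubitrilat, against 80.5, 161 and 114 CPM with vehicle, and fell by 2.39 ± 0.28 on the log2 scale. ZNF518B had 27.2, 31.5 and 28.7 CPM with sacubitrilat, against 9.47, 0 and 5.86 CPM with vehicle (log2 fold change 1.94 ± 0.58). ZNF32 and ZNF146 had log2 fold changes of 2.04 ± 0.58 and 1.72 ± 0.54 with sacubitrilat. These 3 genes had 4 or 5 vehicle reads each and passed the filter through the single-compound libraries, and each call was lost without 1 of the vehicle libraries: replicate 1 for ZNF32, 1 or 2 for ZNF146, and 2 or 3 for ZNF518B.

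Pairs of steps that share no library can be set side by side. Of the 35 genes lower with endothelin-1 than with vehicle, 30 were among the 34 higher in the combined group than with sacubitrilat, and 0 were among the 15 lower. Of the 31 genes higher in the combined group than with endothelin-1, 28 were among the 31 lower with sacubitrilat than with vehicle, and 0 were among the 7 higher. In both steps of a pair a deep group is set against a shallow one. Of all genes 17.2% were higher and 17.8% lower in the combined group than with sacubitrilat. With sacubitrilat against vehicle 8.68% were higher and 11.2% lower. The overlap of calls was not counted over all genes, so it is not shown to be particular to the ZNF genes. The single-compound libraries carried 5 of the 15 lower genes and 3 of the 7 higher genes past the filter.

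**Figure D4:**
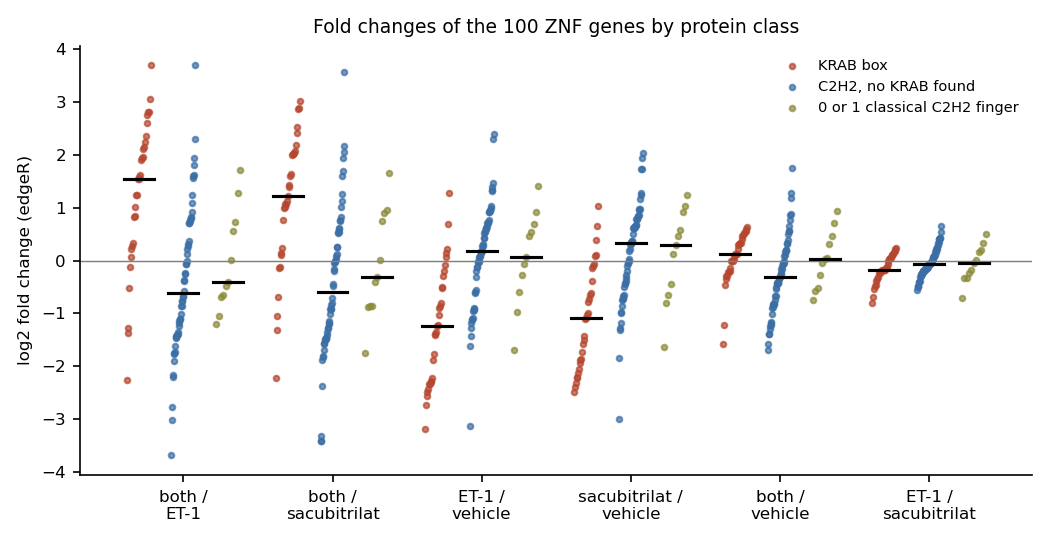
Log2 fold changes (edgeR) of the 100 ZNF genes in 6 comparisons, each named first group over second, split by protein class. Points are genes and black bars are class medians; the KRAB median is 1.54 for both over ET-1, -1.23 for ET-1 over vehicle and 0.13 for both over vehicle.

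Where the libraries compared were of like totals the differences were few. The combined group against vehicle gave 0 of the 100 genes called by edgeR, where 0.179% of all genes were. Unadjusted p lay under 0.05 for 7 of the 100 and for 11.6% of all genes (edgeR). DESeq2 called 1 and limma-voom 0. Without vehicle replicate 2 edgeR called 2, and without vehicle replicate 3 it called 1. The KRAB median was 0.13, with 0 of 31 called. ZNF853 had the smallest p. It had 275, 195 and 104 CPM in combined libraries and 60.0, 37.1 and 135 CPM with vehicle, and the ranges overlapped (log2 fold change 1.19 ± 0.33, adjusted p = 0.126, edgeR). ZNF611 and ZNF121 followed at 0.57 ± 0.18 and 0.56 ± 0.20, with adjusted p of 0.186 and 0.243 (edgeR). On the lower side ZNF827, ZNF638 and ZNF532 had log2 fold changes of -1.16 ± 0.47, -1.29 ± 0.56 and -0.83 ± 0.45, none called. With 80844 to 316932 counts a library, 53 of the 100 genes reached the filter level in all 12 libraries.

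Endothelin-1 against sacubitrilat, the comparison with most counts, called 4 genes higher and 2 lower with endothelin-1, where 11.2% of all genes were called, 6.44% higher and 4.78% lower. ZNF703, a co-repressor related to ZNF503, had 80.8, 95.0 and 80.8 CPM with endothelin-1, against 152, 144 and 154 CPM with sacubitrilat. The endothelin-1 libraries all lay below (log2 fold change -0.70 ± 0.11, adjusted p = 2.3e-05, edgeR). ZNF587 had 37.9, 31.9 and 46.5 CPM with endothelin-1, against 66.8, 97.6 and 63.4 CPM with sacubitrilat (log2 fold change -0.81 ± 0.18, adjusted p = 0.0017, edgeR), and is the KRAB gene among the 6. ZNF106, an RNA-binding protein, had 160.5, 151 and 152 CPM with endothelin-1, against 126, 126 and 124 CPM with sacubitrilat, without overlap (log2 fold change 0.42 ± 0.12, adjusted p = 0.0133, edgeR).

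ZNF622, which acts in maturation of the large ribosomal subunit, had 44.9, 33.9 and 39.0 CPM with endothelin-1, against 25.0, 30.0 and 32.8 CPM with sacubitrilat (log2 fold change 0.53 ± 0.17, adjusted p = 0.0352, edgeR). ZNF692 had 27.5, 30.5 and 25.6 CPM with endothelin-1, against 22.0, 21.3 and 15.4 CPM with sacubitrilat (0.66 ± 0.21 on the log2 scale). In both genes the groups stood apart. ZNF704 had 61.2, 56.3 and 75.6 CPM with endothelin-1, against 59.5, 49.7 and 42.5 CPM with sacubitrilat, and was called although 1 sacubitrilat library lay inside the endothelin-1 range (log2 fold change 0.50 ± 0.15, adjusted p = 0.0276, edgeR). These calls included, 31 of the 100 genes had non-overlapping ranges with endothelin-1 lower and 5 with endothelin-1 higher, where 25.6% and 10.2% of all genes did. KRAB genes made up 14 of the 31 and 0 of the 5. Leaving out endothelin-1 replicate 1, sacubitrilat replicate 1 or sacubitrilat replicate 3 left 3 calls, and leaving out vehicle replicate 2 gave 12. DESeq2 and limma-voom each called 2 of the 100 genes, and exchanging the labels would turn every one of these directions round.

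**Figure D5:**
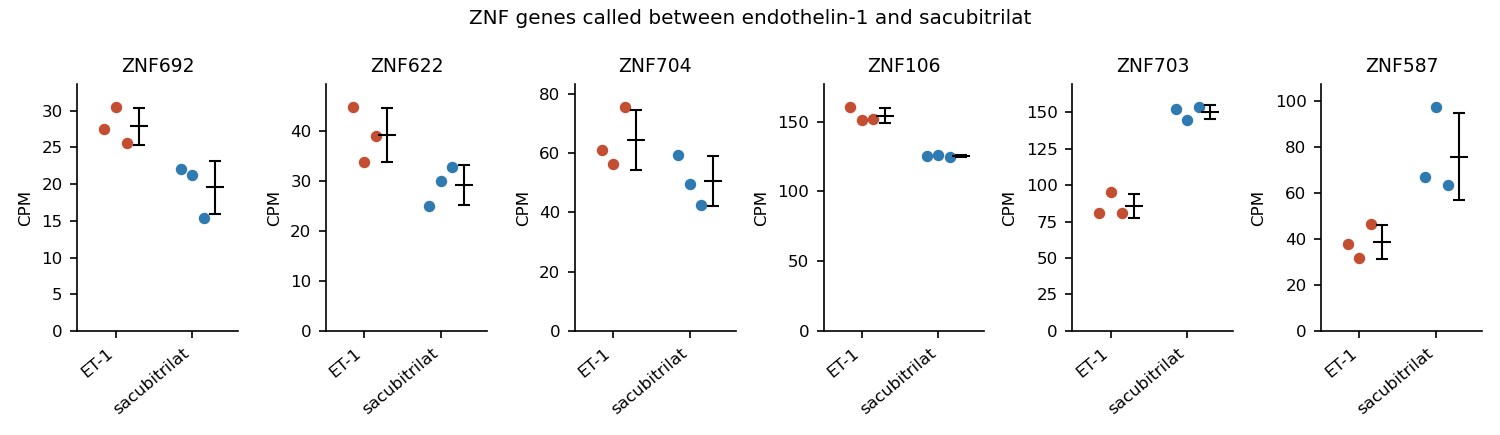
CPM (y axis, from 0) of the 6 ZNF genes called between the endothelin-1 (ET-1) and sacubitrilat groups. Points are libraries and black bars are group means with SD, n = 3; ZNF703 lay at 80.8 to 95.0 CPM with endothelin-1 and at 144 to 154 CPM with sacubitrilat.

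Averaging each compound over the presence of the other puts 1 deep and 1 shallow group on each side. Endothelin-1 so averaged called 0 of the 100 genes by edgeR, where 1.83% of all genes were called. Unadjusted p lay under 0.05 for 14 of the 100 and for 14.8% of all genes (edgeR). DESeq2 called 1 and limma-voom 0. Without vehicle replicate 1 or 2 edgeR called 1. ZNF106 came closest, at 0.41 ± 0.13 on the log2 scale (adjusted p = 0.0978, edgeR), with ZNF703 at -0.61 ± 0.23 (adjusted p = 0.185, edgeR). Averaged sacubitrilat called 0 by edgeR, where 0.259% of all genes were called. Unadjusted p lay under 0.05 for 10 of the 100 and for 10.1% of all genes (edgeR). DESeq2 and limma-voom called 0. Without vehicle replicate 2 edgeR called 3, and without replicate 3 it called 1. ZNF853 had the smallest p there, at 0.66 ± 0.19 (adjusted p = 0.128, edgeR).

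The interaction, the change with sacubitrilat in the presence of endothelin-1 minus the change without it, called 37 genes higher and 28 lower, where 46.1% of all genes were called, 20.1% higher and 26.0% lower. With no filter on low counts the split was 28 higher and 40 lower. It is also the sum of the shallow groups minus that of the deep groups, so that interaction and library total cannot be told apart. KRAB genes gave 21 higher and 2 lower of 31, with a median of 2.64, against -0.92 in the 58 other C2H2 genes and -0.43 over all genes. The 2 lower KRAB genes, ZNF302 and ZNF33A, were carried past the filter by the single-compound libraries. ZNF121, ZNF432 and ZNF611 led at 6.70 ± 0.29, 6.19 ± 0.43 and 5.37 ± 0.25 on the log2 scale. ZNF32, ZNF146 and ZNF518B had the lowest values, -5.72, -4.74 and -4.71, each resting on 1 read in the combined group and given as a description. All 11 genes that the single-compound libraries carried past the filter were among the 28 called lower. The filter admitted them through the deep groups, where they are high, so these 11 calls are no test result. The other 89 genes gave 37 higher and 17 lower.

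Among the genes that were higher in the combined group than with endothelin-1, some properties were more frequent than among the rest. None of these properties chose the genes, but the KRAB pattern was widened after values had been seen. Of these 31 genes 61.3% had a KRAB box, 61.3% lay on chromosome 19 and 38.7% had a run of at least 15 A in the 3′ UTR, upstream of its last 50 bases. Of the 53 genes not called the same shares were 20.8%, 24.5% and 15.1%, and of the 16 called lower 6.2%, 12.5% and 6.2%. The single-compound libraries, where they are high, carried 7 of these 16 past the filter. Shares in the lower set are therefore a description. Chromosome and KRAB box overlap. On chromosome 19, 16 of 22 KRAB genes were higher, and 3 of 12 genes in which the pattern found no KRAB box. On other chromosomes the counts were 3 of 9 and 9 of 57. An A run inside a transcript is a place where a poly(dT) primer can anneal, and its part in these differences was not tested. KRAB genes with such a run gave 8 of 12 higher (median 1.56) and KRAB genes without one 11 of 19 (median 1.54), while genes with a run and no KRAB box gave 4 of 9 (median -0.39). Over all protein-coding genes tested, 200 of 836 with an A run were higher and 124 lower (median 0.12), against 992 and 1772 of 8881 without one (median -0.39).

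Counts that were not whole numbers also moved with the result, and their part in it was not tested. A fractional deposited count was present in some library for 25 of the 31 KRAB genes and for 27 of the 69 others. KRAB genes with fractional counts gave 17 higher and 1 lower in the combined group against endothelin-1 (median 1.57), and the 6 with whole counts alone gave 2 higher and 0 lower (median 0.68). Genes without a KRAB box gave 9 higher and 3 lower of 27 with fractional counts (median 0.12) and 3 higher and 12 lower of 42 with whole counts (median -0.72). Of all 16 genes called lower here, 7 were carried past the filter by the single-compound libraries, and their calls are no test result. Of the nonzero counts, 83.3% were fractional in ZNF320, 66.7% in ZNF432 and 58.3% each in ZNF611 and ZNF587, and 16.7% in ZNF121. How the counting made fractions is not given in the sources used here. Many KRAB genes have close copies, and the values of genes with fractional counts are uncertain.

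Among the less counted genes of the series that could be tested, more were called higher than lower in the combined group. Of the other 417 ZNF genes 128 could be tested, and 27 (21.1%) were higher and 5 (3.91%) lower in the combined group than with endothelin-1 (median 0.50), where 16.6% and 17.8% of all genes were. With endothelin-1 against vehicle 3 (2.34%) were higher and 21 (16.4%) lower (median -0.38), where 11% and 12.2% of all genes were. Over all 109 KRAB genes tested, the 31 included, 41 were higher and 3 lower in the combined group than with endothelin-1 (median 1.07). Which libraries carried the less counted genes past the filter was not counted. ZNF484 averaged 6.56 CPM with endothelin-1 and 7.99 CPM with sacubitrilat, under the filter level of 12.6 CPM. It averaged 68.5 CPM in the combined group and 59.6 CPM with vehicle. A gene admitted only through the groups where it is high leans towards a higher call there. The calls of the less counted genes, KRAB genes among them, are therefore a description. In related zinc finger groups few genes could be tested, and no difference from the ZNF genes was tested. Their route past the filter was not counted either, so their calls are a description. The comparison used was the combined group against endothelin-1. In that comparison ZBTB genes, which join fingers to a BTB domain, gave 4 higher and 4 lower of 27, KLF and SP factors 3 higher and 0 lower of 15, and ZSCAN and ZKSCAN genes 2 higher and 0 lower of 8. ZFP, ZIK and ZIM genes gave 1 higher and 1 lower of 9, and the large ZFHX, ZFX, ZEB and ZFPM factors 0 higher and 1 lower of 8.

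Genes for the proteins through which KRAB boxes act were also counted. Of 18 tested genes of the TRIM28, SETDB1, HP1, NuRD, HUSH and related complexes, 0 were higher and 5 (27.8%) lower in the combined group than with endothelin-1 (median -0.66), where 17.8% of all genes were lower and the median was -0.23. With endothelin-1 against vehicle 3 (16.7%) were higher and 0 lower (median 0.40), where 11% of all genes were higher. With endothelin-1 against sacubitrilat 0 were higher and 3 (16.7%) lower (median -0.16), where 4.78% of all genes were lower. TRIM28, the scaffold that KRAB boxes bind, had 160.4, 94.5 and 163 CPM in combined libraries, 308, 308 and 308 CPM with endothelin-1, 414, 425 and 455 CPM with sacubitrilat and 221, 99.0 and 234 CPM with vehicle. The combined and vehicle libraries all lay below the single-compound ones, and the log2 fold change in the combined group against endothelin-1 was -1.23 ± 0.25 (adjusted p = 2.0e-04, edgeR). SETDB1 had 48.7, 50.4 and 22.2 CPM in combined libraries and 42.7, 40.9 and 34.9 CPM with endothelin-1, with overlapping ranges (log2 fold change -0.04 ± 0.39, adjusted p = 0.95, edgeR). ATRX, a chromatin remodeller of heterochromatin, had 68.7, 69.3 and 40.8 CPM in combined libraries, against 210.5, 199 and 204 CPM with endothelin-1, and fell by 1.79 ± 0.32 on the log2 scale (adjusted p = 3.8e-05, edgeR). Of the 18 genes, 15 had a log2 fold change below 0 in this comparison and 3 above. HDAC2 averaged 86.2 CPM in the combined group and 72.1 CPM with endothelin-1, ATF7IP 71.7 and 59.9, and DAXX 52.4 and 40.7.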

How the data were processed

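Per the labels' protocols, libraries were stranded, counted 3′ ends and were primed with poly(dT) next to a molecular identifier. The submitters' processing notes name fastp 0.24.0, featureCounts and GRCh38. Not given in the sources used here are the aligner, the annotation, whether identifiers were collapsed, and how strand entered the counting, so antisense and overlapping genes cannot be separated with certainty. The deposited table holds estimated counts, which need not be whole, and the authors' CPM, which equalled each count over its library total (largest difference 2.91e-11 CPM). It lists 78986 features, of which 92 without a gene identifier held 0 counts and were left out.

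Estimated counts were rounded to whole numbers. An edgeR 4.0.16 model (R 4.3.3) with a term for group held all 12 libraries. After filterByExpr, 11203 genes were tested by quasi-likelihood with TMM scaling, and a gene was called at a Benjamini-Hochberg adjusted p under 0.05. The script was tested on simulated data. DESeq2 1.42.0, limma-voom (limma 3.58.1), other scalings, filters and subsets of libraries were alternatives. C2H2 fingers (C, 2 to 4 residues, C, 12 residues, H, 3 to 5 residues, H) and KRAB boxes were found by pattern in GENCODE proteins, and the KRAB pattern was widened after values had been seen. Named genes were the 10 with most counts, the largest non-overlapping changes among called genes with at least 20 counts (6 a direction in the primary comparisons, 3 in the others, and the 3 smallest p where fewer than 5 were called), the genes beside the limit of 100, the KRAB partner genes and the leading genes of each class. The genes, lists and this rule were chosen with earlier results of these data known. Only some of the KRAB partner genes tested are named. Ratios resting on 1 to 3 reads carry an exact 95% Clopper-Pearson interval for the split of the pooled reads; both these intervals and the 3-count floor cover counting error alone. The 3 cultures of a group are separate cultures per the series' design, and replicate numbers did not pair them: over 18 pairs of libraries with the same number, deviations from the group means correlated at -0.184 to 0.0321.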

Additional observations from a re-analysis of the deposited data

Results flagged for a closer look

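The interaction singled out 65 of the 100 genes, 37 higher and 28 lower, so that the change with sacubitrilat differed with and without endothelin-1 (edgeR interaction term, adjusted p under 0.05). Over all genes 46.1% were called, 20.1% higher and 26.0% lower, and 11 of the 28 lower genes, ZNF32, ZNF146 and ZNF518B among them, passed the filter only through the single-compound libraries. The largest differences were 6.70 for ZNF121, 6.19 for ZNF432 and 5.37 for ZNF611 on the log2 scale, and -5.72 for ZNF32, -4.74 for ZNF146 and -4.71 for ZNF518B. The 3 negative values are a description, as the filter admitted these genes through the groups where they are high. For each of the first 3 the combined and vehicle libraries all lay above the single-compound libraries, and for each of the last 3 all lay below. Interaction and library total cannot be told apart in these libraries.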

How the results depend on the processing

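Counts of genes called fell with thinning and with a higher filter. For these and the other alternative settings, with 1 library left out included, shares called over all genes are not given. The counts therefore describe the 100 genes alone and do not set them against all genes. Thinning every library to 80000 counts left 15 of the 100 genes called for endothelin-1 against vehicle, 20 for the combined group against endothelin-1, 13 for sacubitrilat against vehicle, 18 for the combined group against sacubitrilat, 0 for endothelin-1 against sacubitrilat and 20 for the interaction. A mean of at least 50 counts, which tests fewer genes, left 11, 13, 12 and 15 for the first 4 of these and 15 for the interaction, and called 1 for averaged endothelin-1. Of KRAB genes, counted under all settings after the data had been seen, thinning left 9 called and the higher filter 3 in each primary comparison. For endothelin-1 against sacubitrilat the count of 6 became 2 with no filter, DESeq2 or limma-voom, 15 with these groups alone, and 13 without the libraries under 100000 counts. Without those libraries 1 gene was called for the combined group against vehicle and 2 for averaged sacubitrilat, and DESeq2 called 1 for the combined group against vehicle and 1 for averaged endothelin-1.

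Leaving out 1 library at a time gave 27 to 40 genes for endothelin-1 against vehicle, 36 to 55 for the combined group against endothelin-1, 26 to 37 for sacubitrilat against vehicle, 35 to 57 for the combined group against sacubitrilat, 0 to 2 for the combined group against vehicle, 3 to 12 for endothelin-1 against sacubitrilat, 0 to 1 for averaged endothelin-1, 0 to 3 for averaged sacubitrilat and 49 to 68 for the interaction. KRAB genes called were 16 to 21 for endothelin-1 against vehicle and 17 to 22 for the combined group against endothelin-1. Shares of counts were 0.735% to 0.840% in the combined group, 0.419% to 0.425% with endothelin-1, 0.478% to 0.483% with sacubitrilat and 0.673% to 0.831% with vehicle.

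Against protein-coding counts the share was 0.957% in the combined group, 0.489% with endothelin-1 and 0.547% with sacubitrilat, and without mitochondrially encoded genes it was 0.943%, 0.530% and 0.570%. With the 100 genes chosen by summed CPM it was 0.402% with endothelin-1 and 0.460% with sacubitrilat. Every ZNF gene together held 1.13% in the combined group, 0.656% with endothelin-1, 0.748% with sacubitrilat and 1.09% with vehicle. With the replicate block 38 genes were called for endothelin-1 against vehicle, 46 for the combined group against endothelin-1 and 2 for endothelin-1 against sacubitrilat; none of 18 same-numbered pairs correlated above 0.1. Exchanging the endothelin-1 and sacubitrilat labels reversed the differences between these groups, to -0.42 for ZNF106, 0.81 for ZNF587, -0.53 for ZNF622, -0.66 for ZNF692, 0.70 for ZNF703 and -0.50 for ZNF704. Of 120 single-gene results, 103 of the values under other settings and 92 with 1 library left out lost the call, and 958 and 1228 did not. The cause of these changes was not tested.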
